A study of Mus musculus with 2 samples.

Results

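Levels of 10 genes of the Notch pathway were examined in nuclei of fetal mouse lung, across cell types that were told apart by marker genes outside this set. The set was taken by name and holds the receptors Notch1, Notch2, Notch3 and Notch4, the ligands Jag1, Jag2, Dll1 and Dll4, and the target genes Hes1 and Heyl. These are 10 of the 32285 gene features in each library, and all 10 were found once in both. RNA and accessible chromatin had been read from the same nuclei of wild type fetuses on gestation day 18. Mothers aged 6 to 8 weeks were injected intraperitoneally with PBS and alum (25 µL), with or without 100 µg ovalbumin (OVA), on days -21 and -7, and were bred to untreated males. They then received 20 µL PBS intranasally, with or without 500 µg OVA, every 2 to 3 days from gestation day 4 to day 17. The PBS library pooled 9 fetuses and the OVA library 8, and per the study each pool came from 1 dam, so OVA treatment, dam and library cannot be told apart. Both groups carry the alum.

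Notch receptors sit on the cell surface and bind ligands on a neighbouring cell. Binding leads to cleavages by ADAM proteases and then by gamma-secretase, which free the intracellular domain. That domain enters the nucleus and, with the DNA-binding protein RBPJ and a Mastermind-like coactivator, turns on genes such as those of the Hes and Hey families, which encode transcriptional repressors. In blood vessels NOTCH3 is the receptor of smooth muscle cells and pericytes, together called mural cells, while NOTCH4 and the ligand DLL4 are known from endothelium. In lymphocytes NOTCH1 directs the T cell fate, and in lung epithelium Notch signals take part in the choice between secretory and ciliated cells.

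The PBS library held 8019 barcodes with 11473351 gene UMIs (unique molecular identifiers, which count RNA molecules) and the OVA library 5960 barcodes with 13774959. Filters on genes and mitochondrial UMIs and the removal of doublets kept 53.4% and 83.8% of the barcodes, with a median of 649 and 1214 UMIs of nuclear genes per nucleus. The mitochondrial part of the RNA was 45.2% for PBS and 29.2% for OVA, and 54 barcodes occurred in both libraries (0.673% and 0.906%). The sorted fractions were ILC2s (group 2 innate lymphoid cells, which secrete type 2 cytokines), other CD45+ leukocytes and epithelium positive for EpCAM, but nuclei with fibroblast, muscle and pericyte markers were present in numbers, and the mural nuclei described below are among these. Fixed markers gave names to 16 types, and the 10 of them with 50 or more nuclei from PBS and from OVA fetuses were compared. Of their markers, 7 of 7 were raised in ILC2-like nuclei of both libraries, 7 and 6 of 7 in smooth muscle-like nuclei and 8 and 9 of 9 in pericyte-like nuclei. Smooth muscle-like nuclei were few, with 63 for PBS and 76 for OVA, and were led by Ctnna3, Gpc6 and Ntrk3. Their defining marker Cnn1 had 1 UMI for PBS and 0 for OVA, whereas Acta2 stood at 1122 and 1072 CPM. Pericyte-like nuclei numbered 116 and 138. These 2 types are together called mural here for short, and whether the smooth muscle-like nuclei came from vessels or airways was not tested. RNA of other cells was present: the 7 alveolar type 2 (AT2) markers came to 5060 CPM in PBS and 757 CPM in OVA pericyte-like nuclei. In smooth muscle-like nuclei the AT2 markers came to 3693 and 1154 CPM. The 2 mural types also shared markers: the 9 pericyte markers summed to 1991 and 1674 CPM in smooth muscle-like nuclei, beside 3063 and 2753 CPM for their own 7 markers. Levels are given in counts per 1000000 nuclear-gene UMIs (CPM), with UMIs summed over the nuclei of a type. A level is compared here across types and libraries, not between genes, since CPM does not correct for gene length. Brackets hold 95% intervals, which cover counting error only, and with 1 library per group no difference has a replicate check.

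**Figure D1:**
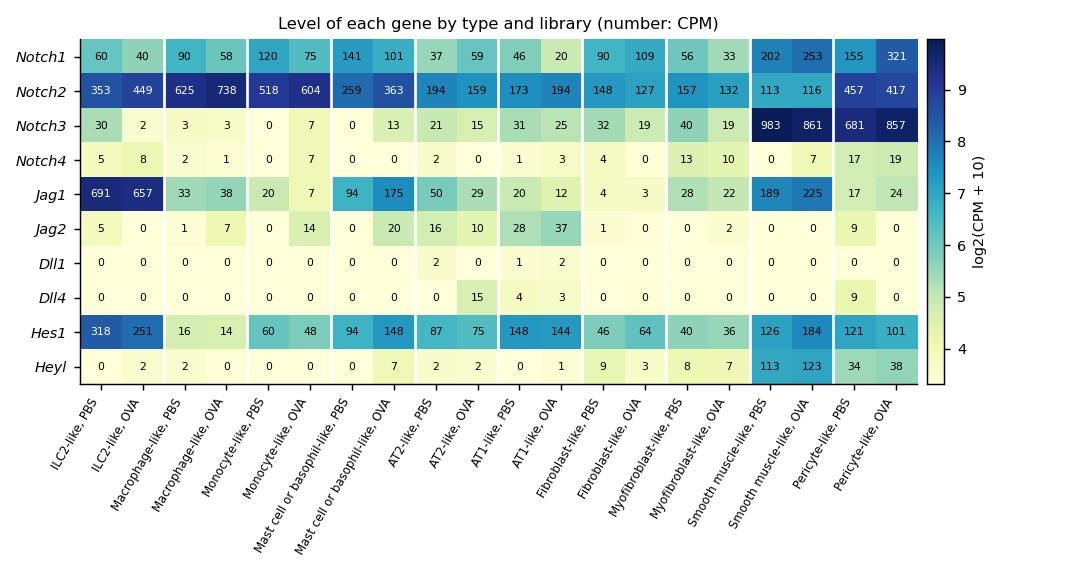
Level of each of the 10 genes (rows) in each of the 10 types and both libraries (columns), with colour for log2(CPM + 10) and the CPM printed in each cell. Notch3 is dark in the smooth muscle-like and pericyte-like columns, Jag1 in the ILC2-like columns, and Dll1 and Dll4 are near 0 throughout.

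Among the receptors, Notch3 was high in the mural nuclei and low in the other 8 types. It stood at 983 CPM (777 to 1227; 78 UMIs) in smooth muscle-like nuclei of the PBS library and at 861 CPM (717 to 1025; 126 UMIs) in those of the OVA library. In pericyte-like nuclei it stood at 681 CPM (539 to 849; 79 UMIs) and 857 CPM (736 to 992; 179 UMIs). In each of the other 8 types it was at or below 40.4 CPM in both libraries, so the mural types and the rest did not overlap. The next type in order was myofibroblast-like for PBS and alveolar type 1 (AT1)-like for OVA, and pericyte-like nuclei were above it by 4.07 on the log2 scale (3.29 to 4.95), 16.8-fold, and by 5.12 (4.51 to 5.78), 34.7-fold. Smooth muscle-like nuclei were above pericyte-like nuclei in the PBS library by 0.53 (0.06 to 1.00), but in the OVA library the difference was within counting error, at 0.01 (-0.33 to 0.34). Over all 13016 genes with at least 30 UMIs, 2.88% had the same 2 types at least 2-fold above the next in both libraries, and 36 of these 375 genes had the same pair as Notch3. This criterion was drawn up after the Notch3 levels were seen and is a description.

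The share of nuclei with a Notch3 UMI was compared at equal depth, by drawing 500 nuclear-gene UMIs from each nucleus and leaving out nuclei with fewer. It was 44.0% (30 to 58.7, Clopper-Pearson; 50 nuclei, 13 left out) in smooth muscle-like nuclei of the PBS library and 37.0% (26.0 to 49.1; 73 nuclei, 3 left out) in those of the OVA library. In pericyte-like nuclei it was 30.8% (19.9 to 43.4; 65 nuclei, 51 left out) and 34.7% (26.4 to 43.7; 124 nuclei, 14 left out). Macrophage-like nuclei, which should lack the gene, gave 0.357% and 0.220% at the same depth. Unthinned shares in pericyte-like nuclei were 40.5% and 64.5% at medians of 587 and 1216 UMIs, whereas the shares at equal depth overlapped in their intervals. The Notch3 gene (ENSMUSG00000038146) starts at position 32166852 of GRCm38 chromosome 17. The bases before its RefSeq start, which lies upstream of that position, are shown because the gene's start is open in several types with little of its RNA, as the chromatin values further on show. They are taken from RefSeq (GRCm38.p6, chr17:32166891-32167140, minus strand, 250 bases, read 5′ to 3′ along the gene), with capitals marking the GC box GGGCGG on either strand, of which 4 occur.
Notch3 promoter: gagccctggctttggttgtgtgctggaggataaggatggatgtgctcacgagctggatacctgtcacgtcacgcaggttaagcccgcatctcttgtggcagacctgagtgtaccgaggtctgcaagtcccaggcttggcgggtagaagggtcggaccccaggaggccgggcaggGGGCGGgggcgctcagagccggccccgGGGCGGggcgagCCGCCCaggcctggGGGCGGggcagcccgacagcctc

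Notch1, a receptor found on many cell types, was highest in the same mural nuclei but was measured in every type. It stood at 202 CPM (115 to 327) and 253 CPM (178 to 348) in smooth muscle-like nuclei and at 155 CPM (92.0 to 245) and 321 CPM (249 to 407) in pericyte-like nuclei of the PBS and OVA libraries. The other types ran from 36.6 CPM in AT2-like to 141 CPM in nuclei like mast cells or basophils in the PBS library, and from 19.8 CPM in AT1-like to 109 CPM in fibroblast-like nuclei in the OVA library. In the PBS library no neighbours in this order differed beyond counting error. In the OVA library the one step that did was from smooth muscle-like to fibroblast-like nuclei, with 1.22 on the log2 scale (0.67 to 1.72).

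Notch2 was highest in the macrophage-like and monocyte-like nuclei. Macrophage-like nuclei stood at 625 CPM (576 to 678; 584 UMIs) for PBS and 738 CPM (701 to 777; 1493 UMIs) for OVA, and monocyte-like nuclei at 518 CPM (338 to 759) and 604 CPM (485 to 743). Pericyte-like and ILC2-like nuclei followed, in this order for PBS and in the opposite order for OVA, within counting error. Pericyte-like nuclei had 457 CPM (342 to 598) and 417 CPM (334 to 514), and ILC2-like nuclei 353 CPM (276 to 445) and 449 CPM (392 to 512). Nuclei like mast cells or basophils came after both, with 259 CPM (129 to 463) and 363 CPM (273 to 474). Smooth muscle-like nuclei, which lie next to pericyte-like nuclei for Notch3, were lowest for Notch2 with 113 CPM (51.9 to 215; 9 UMIs) and 116 CPM (67.6 to 186; 17 UMIs). The next lowest, fibroblast-like nuclei, were above them only within counting error, by 0.39 (-0.59 to 1.55) for PBS and 0.13 (-0.58 to 0.93) for OVA on the log2 scale. Alveolar, fibroblast-like and myofibroblast-like nuclei lay between 127 and 194 CPM in both libraries. At equal depth 27.5% (24.5 to 30.7) of PBS and 29.8% (27.4 to 32.3) of OVA macrophage-like nuclei had a Notch2 UMI, against 8.11% and 5.26% of fibroblast-like nuclei. No type led the next by 2-fold, and macrophage-like and monocyte-like nuclei did not differ beyond counting error.

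Notch4, the endothelial receptor, was at or below 19.2 CPM in each of the 10 types. It had 15 UMIs in all of them together for PBS and 22 for OVA, and its highest values were in pericyte-like nuclei, with 2 and 4 UMIs. At this depth no order among the types can be read.

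Among the ligands, Jag1 was led by the ILC2-like nuclei. It stood there at 691 CPM (581 to 816; 139 UMIs) for PBS and at 657 CPM (587 to 732; 325 UMIs) for OVA. Smooth muscle-like nuclei came next with 189 CPM (106 to 312) and 225 CPM (155 to 317), followed by those like mast cells or basophils with 94.1 CPM (25.6 to 241) and 175 CPM (114 to 256). The other 7 types were at or below 50.3 CPM, and fibroblast-like nuclei were lowest in both libraries, with 3.97 and 3.31 CPM. ILC2-like nuclei were above the next type by 1.87 (1.10 to 2.75) on the log2 scale, 3.65-fold, for PBS and by 1.54 (1.02 to 2.11) for OVA, and the intervals of the ILC2-like levels overlapped those of no other type. Of the 8 of the 10 genes that had at least 30 UMIs, Jag1 was the one with the same leading type at least 2-fold above the next in both libraries, beside 931 of 13016 genes (7.15%) over all genes. ILC2-like nuclei were the leading type of 107 of those genes. When each nucleus counted with 500 UMIs the lead in the OVA library was 0.90 (0.11 to 1.81), short of 2-fold, and that in the PBS library was 2.82 (1.91 to 3.84).

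At equal depth a Jag1 UMI was found in 22.7% (16.4 to 30.2; 154 nuclei, 213 left out) of PBS and 22.9% (18.9 to 27.3; 410 nuclei, 71 left out) of OVA ILC2-like nuclei, and in 0.176% and 0.272% of fibroblast-like nuclei. Unthinned shares were 24.5% and 34.1% at medians of 453 and 874 UMIs. The 7 ILC2 markers summed to 4774 and 5182 CPM in mast cell or basophil-like nuclei, beside 13460 and 15329 CPM in ILC2-like nuclei. Markers of mast cells and basophils summed to 1362 and 1546 CPM in ILC2-like nuclei, endothelial markers to 89.5 and 121 CPM and smooth muscle markers to 74.6 and 26.3 CPM, and the part of any of these in the Jag1 levels was not tested. The genes whose levels followed Jag1 most closely over the 10 types in both libraries (20 points, log2(CPM + 10), 7551 genes searched) were Akap6, Med12l and Rnf128, with Pearson correlations of 0.86, 0.85 and 0.85. The points share 2 libraries, and the correlation is a description. Jag1 (ENSMUSG00000027276) starts at position 137116644 of chromosome 2. The bases before that start are shown because the start was open in each type while the RNA differed between types (RefSeq, GRCm38.p6, chr2:137116645-137116770, minus strand, 126 bases). They hold no GC box, so no base is in capitals.
Jag1 promoter: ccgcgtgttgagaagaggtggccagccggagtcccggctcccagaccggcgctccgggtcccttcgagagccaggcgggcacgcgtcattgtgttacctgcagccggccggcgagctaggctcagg

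The other ligands were scarce. Jag2, the second Jagged ligand, was highest in AT1-like nuclei with 28.0 CPM (17.6 to 42.4; 22 UMIs) for PBS and 36.6 CPM (25.8 to 50.4; 37 UMIs) for OVA, and was at or below 20.2 CPM elsewhere. AT1-like nuclei were not separated from the next type, with a lead of 0.81 (-0.47 to 2.28) and 0.86 (-0.80 to 3.2). Dll1 had 2 UMIs in each library over the 10 types. Dll4 had 4 and 11 UMIs, of which AT2-like nuclei of the OVA library held 7, or 14.7 CPM (5.90 to 30.2), and those of the PBS library 0. Neither Dll1 nor Dll4 reached the minimum of 30 UMIs. ILC2-like nuclei had 0 UMIs of both, which at a limit of 3 UMIs allows levels of up to 14.9 CPM for PBS and 6.06 CPM for OVA, and the Poisson intervals reach 18.3 and 7.46 CPM.

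Of the target genes, Hes1 was highest, among the 10 types, in the nuclei that were highest for Jag1. ILC2-like nuclei had 318 CPM (245 to 406; 64 UMIs) for PBS and 251 CPM (208 to 299; 124 UMIs) for OVA. AT1-like nuclei had 148 CPM (122 to 177) and 144 CPM (122 to 170), smooth muscle-like nuclei 126 CPM (60.4 to 232) and 184 CPM (122 to 268), and pericyte-like nuclei 121 CPM (66.0 to 202) and 101 CPM (62.2 to 154). Nuclei like mast cells or basophils had 94.1 CPM (25.6 to 241) and 148 CPM (92.7 to 224). Macrophage-like nuclei were lowest in both libraries, with 16.1 and 14.3 CPM, and the next lowest type was above them by 1.33 (0.22 to 2.45) and 1.34 (0.46 to 2.20) on the log2 scale. ILC2-like nuclei were above the next type by 1.11 (0.64 to 1.56) in the PBS library but by 0.44 (-0.17 to 1.10) in the OVA library, so Hes1 had no leading type by the 2-fold criterion. In ILC2-like nuclei of equal depth, Jag1 and Hes1 were seen in the same nucleus in 4 of 154 PBS and 10 of 410 OVA nuclei, beside 3.64 and 10.1 that the separate shares would give.

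Heyl, a Hey-family repressor, was highest in the same mural nuclei as Notch3. It stood at 113 CPM (51.9 to 215; 9 UMIs) and 123 CPM (72.9 to 194; 18 UMIs) in smooth muscle-like nuclei and at 34.5 CPM (9.40 to 88.3; 4 UMIs) and 38.3 CPM (16.5 to 75.5; 8 UMIs) in pericyte-like nuclei, and was below 10 CPM in the other 8 types. Smooth muscle-like nuclei were above pericyte-like nuclei by 1.72 (-0.12 to 3.87) for PBS and 1.68 (0.41 to 3.09) for OVA. Of the 8 PBS and 15 OVA smooth muscle-like nuclei with a Heyl UMI, 7 and 12 also had a Notch3 UMI, and among all smooth muscle-like nuclei 37 of 63 and 48 of 76 had one. Deeper nuclei are more likely to show either gene.

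**Figure D2:**
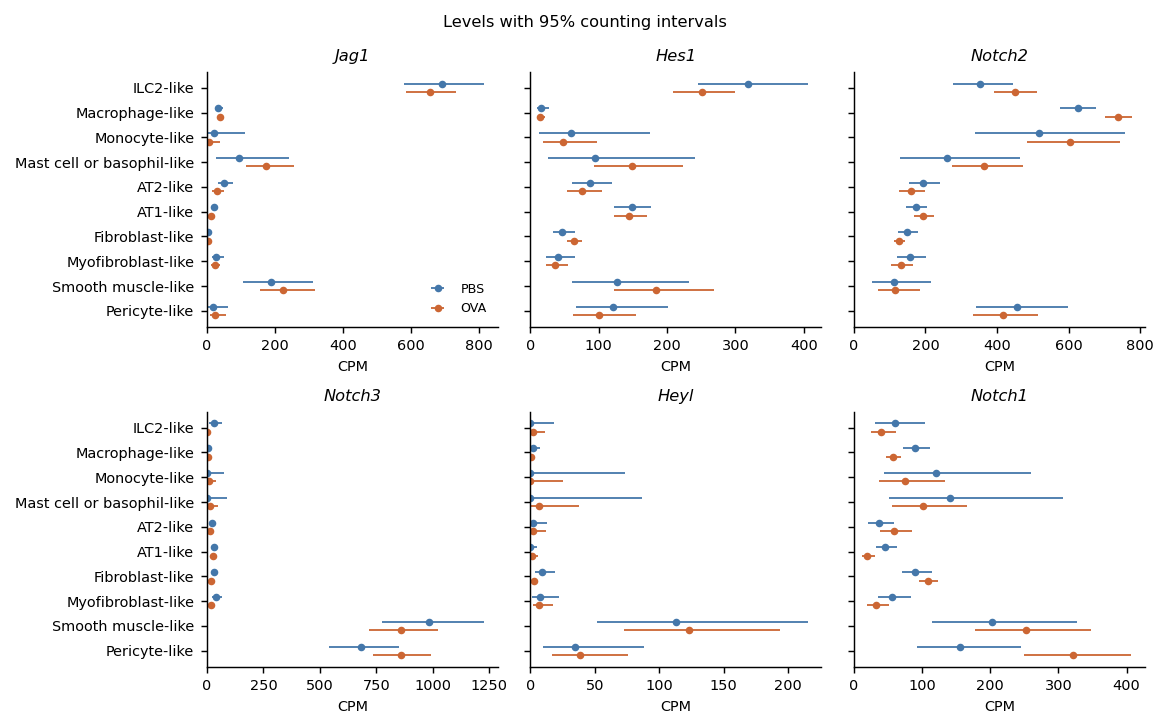
CPM (horizontal axis, linear, from 0) of Jag1, Hes1, Notch2, Notch3, Heyl and Notch1 by type, with 95% Poisson intervals as bars, PBS in blue and OVA in orange. Jag1 and Hes1 have their highest points in ILC2-like nuclei, Notch3 and Heyl in smooth muscle-like nuclei, and Notch2 in macrophage-like nuclei.

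Accessible chromatin at the gene starts was measured in the same nuclei as transposition counts in peaks within 2 kb of the start, per 1000000 counts in peaks that overlapped between the libraries. The start of Jag1 was open in each type, from 52.4 (46.4 to 58.9) in fibroblast-like to 110 (98.7 to 121) in myofibroblast-like nuclei of the PBS library and from 49.7 (39.2 to 62.2) in monocyte-like to 108 (96.9 to 119) in ILC2-like nuclei of the OVA library. The ILC2-like value in the PBS library was 104 (91.6 to 117). The peaks covered 1654 and 1758 bases. The leading type was above the next by 0.08 on the log2 scale in both libraries (-0.15 to 0.31 and -0.16 to 0.33), below the ILC2-like lead in Jag1 RNA.

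The start of Notch3 showed 24.7 (13.5 to 41.5) and 31.3 (19.1 to 48.3) in smooth muscle-like nuclei and 21.5 (12.8 to 34.0) and 33.4 (23.5 to 46.0) in pericyte-like nuclei. Myofibroblast-like nuclei, with little Notch3 RNA, showed 23.4 (18.5 to 29.2) and 22.3 (17.4 to 28.2), and AT2-like nuclei 22.4 (17.9 to 27.6) and 18.3 (13.2 to 24.7). The 4 immune types lay at or below 7.41 in both libraries, below each of the epithelial and stromal types. Peaks covered 750 and 765 bases. For Heyl the mural types were highest, with 42.4 (27.1 to 63.0) and 48.5 (33.0 to 68.9) in smooth muscle-like and 31.1 (20.3 to 45.6) and 46.0 (34.3 to 60.5) in pericyte-like nuclei. Myofibroblast-like nuclei, with little Heyl RNA, showed 30.5 (24.9 to 37.0) and 25.2 (19.9 to 31.4), so in the PBS library they were level with pericyte-like nuclei. Fibroblast-like nuclei showed 20.6 and 22.2, and macrophage-like nuclei 1.93 and 2.27. For Hes1, AT1-like nuclei stood at 155 (142 to 170) and 184 (166 to 203) and ILC2-like nuclei at 151 (137 to 167) and 119 (108 to 131), while macrophage-like nuclei, lowest in RNA, showed 53.1 (48.7 to 57.9) and 50.8 (47.2 to 54.7). Within 2 kb no type led the next by more than counting error for any of the 10 genes.

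A peak 40.4 kb from the Hes1 start (chromosome 16, 30024460 to 30025370 in the PBS library) was highest in ILC2-like nuclei, with 58.9 per 1000000 for PBS and 53.1 for OVA, above the next type by 0.96 (0.34 to 1.63) and 0.64 (0.19 to 1.11) on the log2 scale. It was picked out after the values of all peaks within 50 kb of Jag1, Notch3 and Hes1 were seen. A peak 23.5 kb from the Notch3 start was also highest in ILC2-like nuclei, by 0.80 (0.14 to 1.53) and 0.56 (0.02 to 1.12), although these nuclei had Notch3 at 29.8 and 2.02 CPM. Over all peaks within 50 kb of the Hes1 start AT1-like nuclei led, with 462 and 530 per 1000000, and ILC2-like nuclei had 275 and 232. The AT1-like lead over AT2-like nuclei was 0.26 (0.15 to 0.36) and 0.37 (0.25 to 0.50). In that window macrophage-like nuclei led for Notch2 by 0.32 (0.11 to 0.53) and 0.35 (0.21 to 0.50). Pericyte-like nuclei led for Heyl by 0.41 (0.18 to 0.64) and 0.47 (0.16 to 0.78). RefSeq promoter windows, from 250 bases before to 50 bases after the start, were found for 8 of the 10 genes, and not for Hes1 and Heyl. None of their 9 windows held TGGGAA, the core letters of the RBPJ motif, on either strand, and 25.6% of all 32851 windows did. The windows of Notch1, Notch2, Notch3, Jag2 and Dll4 held the GC box, as did 35.7% of all. AGATAA, the letters of a GATA site, were in none of the 9, against 11.2% of all.

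**Figure D3:**
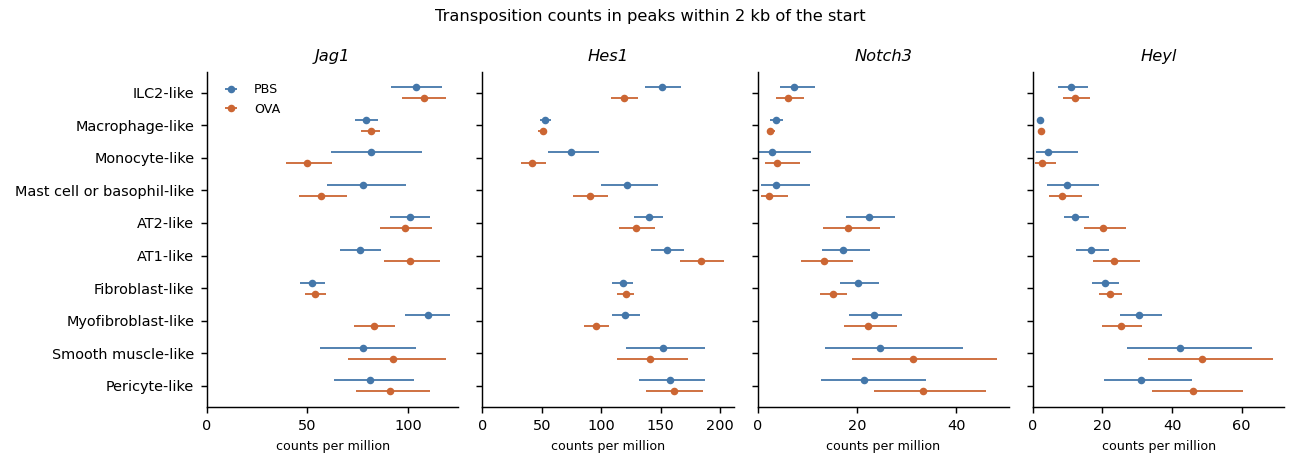
Transposition counts in peaks within 2 kb of the start of Jag1, Hes1, Notch3 and Heyl, per 1000000 counts in overlapping peaks (horizontal axis, linear, from 0), by type, with 95% Poisson intervals, PBS in blue and OVA in orange. The Jag1 points lie between 49.7 and 110 in all types, while the Notch3 points of the 4 immune types lie at or below 7.41.

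Levels were then compared between the libraries of fetuses of OVA and PBS mothers, within each type. With at least 30 UMIs over both libraries, 35 pairs of a gene and a type could be compared, over 6 of the 10 genes. Ratios are log2 of OVA over PBS. The median of all genes with at least 100 UMIs was itself above 0, from 0.05 in AT1-like to 0.25 in monocyte-like nuclei, and a ratio called relative to the median gene has this median of its type subtracted. Of the 35 pairs 16 were above 0 and 19 below, with a median of -0.07, beside 0.06 over all 44098 pairs of a gene and a type. By the criterion of 2-fold or more with an interval leaving out equality, OVA exceeded PBS in 1 pair and PBS exceeded OVA in 1, beside 2.70% and 2.22% of all pairs. Both were Notch1.

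In pericyte-like nuclei Notch1 went from 155 CPM (18 UMIs) in the PBS library to 321 CPM (67 UMIs) in the OVA library, a ratio of 1.05 (0.28 to 1.89), or 0.91 relative to the median gene. The share of nuclei with a Notch1 UMI at equal depth was 3.08% (0.375 to 10.7) for PBS and 21.8% (14.9 to 30.1) for OVA. The PBS share rests on 2 of 65 nuclei, with 51 left out, and the OVA share on 27 of 124, with 14 left out. Unthinned shares were 13.8% and 35.5% at medians of 587 and 1216 UMIs. In AT1-like nuclei Notch1 went from 45.9 CPM (36 UMIs) to 19.8 CPM (20 UMIs), a ratio of -1.21 (-2.08 to -0.39). Its share at equal depth was 1.42% (0.294 to 4.10) for PBS and 0.955% (0.197 to 2.77) for OVA. These are 3 of 211 and 3 of 314 nuclei, too few to compare. Unthinned shares were 8.88% and 4.9% at medians of 797 and 1617 UMIs. Markers of other cells differed between the libraries in both types, and in pericyte-like nuclei they went both ways. There the 8 endothelial markers summed to 353 CPM (254 to 479) and 531 CPM (437 to 640), with overlapping intervals and 2 and 3 of them at 0. The AT2 markers fell from 5060 to 757 CPM in these nuclei and the AT1 markers from 293 to 105 CPM. In AT1-like nuclei the endothelial markers summed to 144 CPM (119 to 173) and 55.4 CPM (41.8 to 71.9) with none at 0. The 7 fibroblast markers came to 234 and 83.0 CPM in AT1-like nuclei, and the 9 pericyte markers to 200 and 77.1 CPM. Their part in the Notch1 ratios was not tested. Neither ratio reached 2-fold when doublet calls were kept, at 0.95 (0.27 to 1.68) and -0.59 (-1.26 to 0.08).

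Intervals left out 0 in 4 of the 35 pairs, beside 8344 of 44098 over all genes. The other 2 pairs, besides those above, were in macrophage-like nuclei. Notch1 was lower in the OVA library, with 89.9 and 57.9 CPM and a ratio of -0.64 (-1.05 to -0.21), and Notch2 was higher, with a ratio of 0.24 (0.10 to 0.38), or 0.09 relative to the median gene. These nuclei came from 4 clusters of unequal share. Cluster 2, led by Ms4a8a and Trem3, held 776 PBS and 348 OVA nuclei, and cluster 4, led by Nrg4 and Dmxl2, held 179 and 859. Notch1 stood at 118 and 74.7 CPM in the first of these and at 62.3 and 58.7 CPM in the second. For Notch2 the clearest step was in a smaller cluster of 143 PBS and 144 OVA nuclei led by Wfdc17 and Inhba, from 488 to 852 CPM, against 634 and 673 CPM and 748 and 756 CPM in the 2 large clusters. The smallest cluster, of 48 and 55 nuclei led by C1qa and Stab1, had less Notch2, with 247 CPM (99.4 to 509) and 227 CPM (124 to 381).

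Apart from Notch1, the genes did not pass 2-fold in the types where they were highest. Jag1 in ILC2-like nuclei had a ratio of -0.07 (-0.36 to 0.22). Hes1 in ILC2-like nuclei had -0.34 (-0.79 to 0.11), and Notch2 in the same nuclei 0.35 (-0.05 to 0.75). Notch3 had -0.19 (-0.61 to 0.23) in smooth muscle-like and 0.33 (-0.06 to 0.73) in pericyte-like nuclei.

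**Figure D4:**
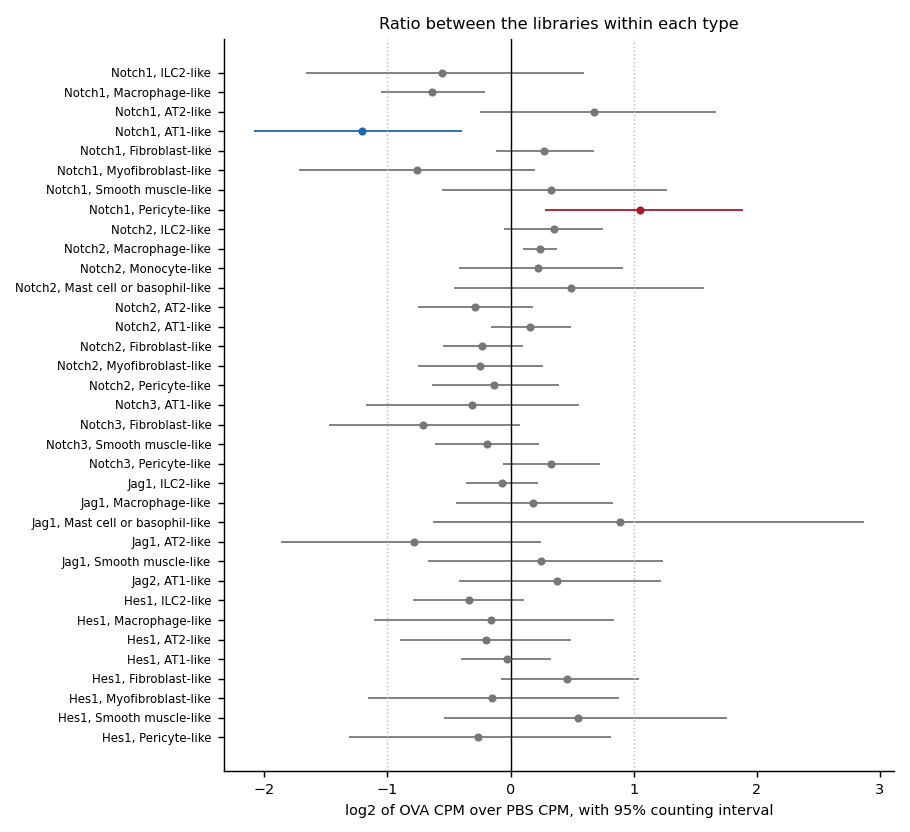
Log2 ratio of OVA over PBS CPM (horizontal axis) with 95% counting intervals for the 35 pairs of gene and type with at least 30 UMIs; dotted lines mark 2-fold either way. Notch1 in pericyte-like nuclei (red, 1.05) is past 2-fold to the right and Notch1 in AT1-like nuclei (blue, -1.21) to the left.

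A list of 45 other genes of the pathway was set beside these, of which 40 had at least 30 UMIs. Of these 2, Dlk1 and Numb, had a leading type, a smaller share than the 7.15% over all genes. Dlk1, which encodes a Delta-like protein that lacks the domain needed to activate Notch, was led by AT2-like nuclei with 2980 and 2962 CPM, above AT1-like nuclei by 2.26 (2.11 to 2.41) and 2.49 (2.34 to 2.63). Numb, an inhibitor of Notch receptors, was led by AT1-like nuclei with 322 and 428 CPM, by 1.05 (0.36 to 1.83) and 1.00 (0.69 to 1.33). Rbpj was measured in each type, from 47.0 to 268 CPM for PBS and from 71.8 to 351 CPM for OVA, highest in macrophage-like nuclei. Between the libraries 193 pairs of a gene and a type could be compared, with a median ratio of 0.12. By the same criterion 4 of the 193 were higher with OVA and 3 were lower, which is no larger a share than the 2.70% and 2.22% over all pairs. Centred on the median gene, 1 was higher and 5 were lower.

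Those higher in mast cell or basophil-like nuclei were Furin, the protease that cleaves the receptor precursor, with 752 and 2144 CPM and a ratio of 1.51 (0.98 to 2.08), 1.40 relative to the median gene, and the coactivator gene Maml2, with 259 and 558 CPM and 1.11 (0.20 to 2.17). Of all genes tested in those nuclei 9.02% were higher by the same criterion. Its relative Maml1 was higher in myofibroblast-like nuclei, with 32.8 and 67.6 CPM and 1.04 (0.10 to 2.07). Dtx4, which encodes a Deltex ubiquitin ligase, was higher in macrophage-like nuclei, with 9.64 and 20.3 CPM (9 and 41 UMIs) and 1.07 (0.01 to 2.30), in nuclei whose clusters differed in share between the libraries as given above. Relative to the median gene Maml1 and Dtx4 both stood at 0.92, short of 2-fold, and of the 4 genes Furin alone was called when centred. Among those lower in the OVA library were Dlk1 in macrophage-like nuclei at -1.09 (-1.67 to -0.51) and Furin in AT2-like nuclei at -1.27 (-2.30 to -0.32). Dlk1 is the gene led by AT2-like nuclei, whose markers summed to 806 and 465 CPM in macrophage-like nuclei, and the part of AT2 RNA in the Dlk1 ratio was not tested. No pair passed among the glycosyltransferases of the receptors, the ligand ubiquitin ligases, the repressors and the other target genes, with 9, 12, 28 and 1 pairs tested.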

How the data were processed

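Processed files of 1 PBS and 1 OVA library were used. The authors deposited raw counts from Cell Ranger ARC 2.0.1 (mm10, per the submitters' processing notes): whole UMI counts of 32285 gene features and whole transposition counts in peaks called per library, neither of them normalized.

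The study's own limits were applied, dropping barcodes under 200 genes or above 60% mitochondrial UMIs. Doublets were called from simulated neighbours at 0.8% per 1000 barcodes. Clusters (scanpy 1.11.5; 3000 variable genes, 30 components, 15 neighbours, Leiden resolution 1.0) were made without the 10 genes, the pathway list and mitochondrial genes. A cluster was named from fixed markers of 25 types (at least 3 markers in 5% of nuclei and raised 1.5-fold, a mean log2 lead of 0.5 and no stronger type among its top 10 genes). The lead was set to this value after the clusters were seen and before any level of the 10 genes was computed. Types with 50 nuclei per library entered.

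Mitochondrial genes were left out of the CPM denominator. A level had a Poisson interval, a ratio an exact conditional binomial interval and a share a Clopper-Pearson interval, at 95%. With 1 library per group no test was possible and no p-value is given. A leading type needed at least 2-fold over the next in both libraries, and a ratio at least 2-fold, each with an interval leaving out equality and 30 UMIs. The named pathway genes are those past a call, of which 1 is counted but not reported here. The members, lists and rules were chosen with earlier results of these data known, and the call on 2 types and the peak near Hes1 after their values were seen.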

Additional observations from a re-analysis of the deposited data

Results flagged for a closer look

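The ratio of OVA over PBS for Notch1 had opposite directions in different types, each with a counting interval that left out 0. It was 1.05 in pericyte-like nuclei, -1.21 in AT1-like nuclei and -0.64 in macrophage-like nuclei. Whether these ratios differ between the types beyond the spread of replicates was not tested, since there was 1 library per group. The cluster makeup of macrophage-like nuclei and the markers of other cells in pericyte-like and AT1-like nuclei, given with these ratios above, moved between the libraries too, and their part was not tested.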

How the results depend on the processing

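No paired analysis was possible because PBS and OVA were 1 library each. No value that met a criterion changed sign under the alternatives run. Of 158 leads over the next type 120 moved by less than their counting interval, as did 351 of 363 ratios and 28 of 79 shares. A lead in accessibility also had to keep its leading type, and 35 of 60 met both conditions. With the 50 kb window 6 of 20 did. Of the 10 genes 1, Jag1, had a leading type. The count was 2 with doublet calls kept (with Heyl), 2 when each nucleus had to hold 2 markers (with Notch3, since smooth muscle-like nuclei dropped out), 2 at 20% mitochondrial UMIs or less (Notch1 and Hes1, over 3 remaining types without ILC2-like nuclei), and 0 at 500 UMIs per nucleus. The count led by the same 2 types, a criterion chosen after seeing the data, was 1 (Notch3) and became 0 under the mitochondrial limit, the filter of the study's joint analysis and the 2-marker gate, each of which removed a mural type. Of pairs of gene and type, 1 higher with OVA became 0 with doublets kept, under the mitochondrial limit, the joint filter, 500 UMIs, centring on the median gene and a minimum of 100 UMIs, and 2 at Leiden resolution 0.5 or a minimum of 10 UMIs. The 1 lower became 0 with doublets kept, under the mitochondrial limit, Leiden resolution 2.0, 500 UMIs and the minimum of 100, and 2 with the 2-marker gate. For the pathway list, 4 higher became 11 with mitochondrial UMIs in the denominator, 8 at a minimum of 10, 2 without Gm42418 and AY036118, with doublets kept or with the 2-marker gate, and 1 with the joint filter, centring or the minimum of 100. The 3 lower became 7 at a minimum of 10, 5 with centring, 1 at 500 UMIs or the minimum of 100, and 0 under the mitochondrial limit. Apart from the types lost, the causes were not tested. With 1 library per group, depth limits only what counting error covers, and Dll1, Dll4 and Notch4 were too scarce in the named types to rank.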

Other observations

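Groups too small or too mixed to be named as a type held most of the remaining RNA of the endothelial members. A cluster of 24 PBS and 34 OVA nuclei had all 8 endothelial markers raised but haemoglobin genes among its leading genes, and so was left unnamed. Notch4 stood there at 57.6 CPM (35.2 to 88.9; 20 UMIs) for PBS and 97.1 CPM (73.4 to 126; 56 UMIs) for OVA. Dll4 stood at 51.8 CPM (30.7 to 81.9) and 60.7 CPM (42.3 to 84.4), and Jag2 at 57.6 CPM (35.2 to 88.9) and 64.2 CPM (45.2 to 88.4). This cluster held 20 of 36 and 56 of 80 Notch4 UMIs and 18 of 22 and 35 of 47 Dll4 UMIs of all kept nuclei. Notch1 was at 173 CPM (132 to 222; 60 UMIs) and 253 CPM (214 to 298; 146 UMIs), and Hes1 at 161 CPM (122 to 209) and 179 CPM (146 to 217). So many UMIs at these levels in so few nuclei mean a depth per nucleus far above the library medians of 649 and 1214. The share of Notch4 and Dll4 UMIs held by the cluster reflects that depth as well as the levels. Jag1 was at 115 CPM (82.2 to 157) and 36.4 CPM (22.5 to 55.7).

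Ciliated-like nuclei, 31 for PBS and 21 for OVA, had Jag1 at 264 CPM (161 to 407) and 203 CPM (152 to 265). Secretory-like nuclei, 35 and 18, had Hes1 at 158 CPM (72.5 to 301) and 282 CPM (158 to 466) and Jag1 at 106 CPM (38.8 to 230) and 18.8 CPM (0.477 to 105). Their Hes1 level in the OVA library was above the 251 CPM (208 to 299) of ILC2-like nuclei, with overlapping intervals. An unnamed cluster of 36 PBS and 24 OVA nuclei, led by genes of major histocompatibility complex class II and Flt3, had Notch2 at 707 CPM (443 to 1071) and 731 CPM (458 to 1107). An unnamed stromal cluster led by Ptn had Notch3 at 125 CPM (78.5 to 190) and 128 CPM (81.4 to 193), between the mural types and the rest.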
